A study of Mus musculus with 12 samples.

Results

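Bone morphogenetic proteins (BMPs), activin, the proteins that trap them outside the cell and the Id genes were examined as a set of 10 genes: the ligand genes Bmp2, Bmp4, Bmp7 and Inhba, the antagonist genes Fst and Grem1, and Id1, Id2, Id3 and Id4. The genes were taken by name from a fixed list, and the transcript with the highest total count stood for each gene. All 10 were found among the 25514 genes to which the deposited transcripts were matched. In GRCm38.p6, Grem1 (chr2:113748675-113758648), Bmp2 (chr2:133552159-133562896), Id1 (chr2:152736251-152737410) and Bmp7 (chr2:172868012-172940321) lie on chromosome 2. Inhba (chr13:16004256-16031609), Id4 (chr13:48261116-48266028) and Fst (chr13:114452262-114458989) lie on chromosome 13. Id3 (chr4:136143822-136145392), Id2 (chr12:25093799-25096092) and Bmp4 (chr14:46383525-46390669) lie on others.

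RNA was sequenced from conditionally immortalized mouse proximal tubule (PT) cells in 12 libraries, 3 in each of 4 groups. Every group carried H2ts6, an Immorto-mouse transgene whose heat-sensitive T antigen keeps cells dividing at 33 °C, and all cells had been moved to 37 °C 5 days earlier. The control line carried floxed Tgfbr2, the gene of the type II TGF-β receptor (H2ts6;Tgfbr2fl/fl, here TβRIIflox/flox PT cells), and the other line had been treated with adenoviral Cre in culture (H2ts6;Tgfbr2-/-, here TβRII-/- PT cells). Each line was either left untreated in its culture medium with 2.5% serum or given H2O2 for 24 h in medium without serum, so H2O2 and serum withdrawal cannot be told apart. The labels give the H2O2 dose as 200 mM and the methods give the same figure in μM. Each genotype was 1 cell line, so loss of Tgfbr2 and any other difference between the lines cannot be told apart. Nothing in the labels says that the 3 libraries of a group came from separate cultures, and p-values measure only the spread between these libraries. Gene totals were between 15870144 and 20857609 counts per library.

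BMPs and activin are secreted dimers of the TGF-β family. BMPs signal through type I and type II receptors to Smad1, Smad5 and Smad9, whereas activin, the dimer of the Inhba product, signals to Smad2 and Smad3. Follistatin (Fst) binds activin almost irreversibly and some BMPs more weakly, and gremlin (Grem1) traps Bmp2, Bmp4 and Bmp7. Id1, Id2, Id3 and Id4 encode helix-loop-helix proteins without a DNA binding domain that sequester E proteins such as Tcf3 and Tcf4, and Id1, Id2 and Id3 are classic BMP target genes. In the kidney Bmp7 is required for nephron formation.

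Windows upstream of the start sites of 3 Id genes are shown because the Id genes moved differently from each other: between the untreated lines Id2 and Id4 differed most and Id3 differed least. RefSeq windows of GRCm38.p6 were held for 6 of the 10 genes, namely Bmp4, Inhba, Grem1, Id2, Id3 and Id4. Each sequence is the 250 bases before the start site, 5′ to 3′ on the gene's strand, and capitals mark GGCGCC, a GC-rich letter string that BMP Smads can bind, and CAGAC or its complement GTCTG, the Smad box.
Id2, chr12:25096093-25096342, minus strand: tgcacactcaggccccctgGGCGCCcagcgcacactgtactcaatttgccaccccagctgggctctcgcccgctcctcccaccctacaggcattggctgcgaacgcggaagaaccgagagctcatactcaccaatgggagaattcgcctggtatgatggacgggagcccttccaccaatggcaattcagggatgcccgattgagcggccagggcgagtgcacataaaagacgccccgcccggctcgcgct
Id3, chr4:136143572-136143821, plus strand: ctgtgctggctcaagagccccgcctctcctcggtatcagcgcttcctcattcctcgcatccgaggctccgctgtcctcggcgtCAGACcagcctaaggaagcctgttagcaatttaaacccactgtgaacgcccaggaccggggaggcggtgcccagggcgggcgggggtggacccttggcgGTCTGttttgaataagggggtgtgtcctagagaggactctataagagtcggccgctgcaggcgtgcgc
Id4, chr13:48260866-48261115, plus strand: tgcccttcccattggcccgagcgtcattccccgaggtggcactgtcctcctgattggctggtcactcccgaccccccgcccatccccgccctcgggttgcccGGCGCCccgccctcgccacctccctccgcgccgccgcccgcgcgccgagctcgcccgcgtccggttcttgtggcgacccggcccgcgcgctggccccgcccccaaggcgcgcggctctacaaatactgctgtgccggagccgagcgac
The Id2 and Id4 windows each held 1 GGCGCC, which 9.59% of 32851 RefSeq windows of the same length held. It lay from -231 to -226 in Id2 and from -148 to -143 in Id4, counted from the start site. The Grem1 window also held 1 GGCGCC, and those of Bmp4 and Inhba held 0. The Id2, Id3 and Id4 windows were 62.8%, 62.8% and 75.6% G or C, against a median of 52.4% over all windows. The share of all windows is thus not matched for this content. The Id3 window held 2 matches to CAGAC, 1 on each strand, and no GGCGCC; 42.19% of all windows held CAGAC. The string CCAAT, read on both strands, was found 3 times in Id2, 2 times in Id4 and 0 times in Id3, against 33.85% of windows with a match. A further string searched, CANNTG with N for any base, was found 1 time in Id2, 0 times in Id3 and 0 times in Id4. Of all windows 66.22% held it. None of these motifs overlapped another in the 3 windows. The matches are letters in a window and do not show binding.

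The label check came first. Tgfbr2 normalized counts (counts scaled to the mean library) were 8393 ± 843 (SD, n = 3) in untreated TβRIIflox/flox PT cells against 6605 ± 221 in the untreated TβRII-/- line (log2 fold change -0.35 ± 0.07, SE). With H2O2 they were 13630 ± 327 and 7216 ± 98.3, a log2 fold change of -0.92 ± 0.07. Tgfbr2 was thus counted in every TβRII-/- library. Counts over a whole transcript include reads outside the deleted part, and do not check the label. The labelled cell type was checked with 12 PT markers. Of these, Slc22a6, an organic anion transporter, was at 0 in all 12 libraries, Slc34a1 and Hnf4a stayed at or near 0, and the endocytic receptor Lrp2 was abundant, at 17280 and 11020 normalized counts in the 2 untreated lines. The 6 PT markers that could be tested were all lower in TβRII-/- PT cells. All 6 epithelial markers were higher in TβRII-/- PT cells. Markers at or near 0 in 1 line, such as Slc5a2 and Epcam, passed the filter only through the other. Of the epithelial markers, Cdh1, Epcam and Cldn4 averaged 1.80, 0.371 and 0 normalized counts in untreated TβRIIflox/flox PT cells against 1111, 663.7 and 836.5 in untreated TβRII-/- PT cells. The keratin genes Krt8, Krt18 and Krt19 averaged 1997, 882 and 15.2 against 4418, 4586 and 185.9, so Krt8 and Krt18 were well counted in both lines. The other nephron list of 8 markers summed to at most 67.4 normalized counts in any library, with Calb1, Aqp2 and Nphs1 at 0 throughout. The summed PT level was 22030 to 28010 in untreated TβRIIflox/flox and 15060 to 16090 in untreated TβRII-/- PT cells. The summed epithelial level was 2664 to 3040 against 11600 to 11950, and both shifts move with each difference between the lines below; their part in them was not tested. Of the lists for other cells, summed levels in untreated TβRIIflox/flox and TβRII-/- PT cells were 522.9 to 548.5 and 2363 to 2632 for 7 fibroblast markers, of which Acta2 made up most while Col1a1 and Pdgfrb were lower in TβRII-/- PT cells (2 of the 4 tested were higher and 2 lower), 124.8 to 137.8 and 459.9 to 583.6 for 5 endothelial markers, of which Kdr made up most, and 129.1 to 145.2 and 236.4 to 252.7 for 5 immune markers, nearly all of it Cd68. Lum, Tie1, Adgre1 and Cd3e were at 0 in all 12 libraries. In bulk RNA, fewer cells of a type and less RNA per cell cannot be told apart.

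To determine how the 10 genes differed between the lines, untreated TβRII-/- PT cells were compared to untreated TβRIIflox/flox PT cells. A gene was called when its Benjamini-Hochberg adjusted p from the edgeR quasi-likelihood test was under 0.05 and its fold change was at least 1.5. Of the 8 genes that passed the filter on low counts, 6 were called, 4 higher and 2 lower, whereas 28.0% of the 12971 genes tested were called, 16.3% higher and 11.8% lower. Bmp7 passed the filter only through its counts in TβRII-/- PT cells, so its call is no support. Without Bmp7, the median log2 fold change of the other 7 genes was 0.20, and that of all genes tested was 0.01. With H2O2 in both lines, 6 of the 8 were called, 3 higher and 3 lower, against 30.7% of all genes, 17.3% higher and 13.4% lower, and the medians, again without Bmp7, were -0.45 and 0.02. The plot of normalized counts by library shows all 10 genes.

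**Figure D1:**
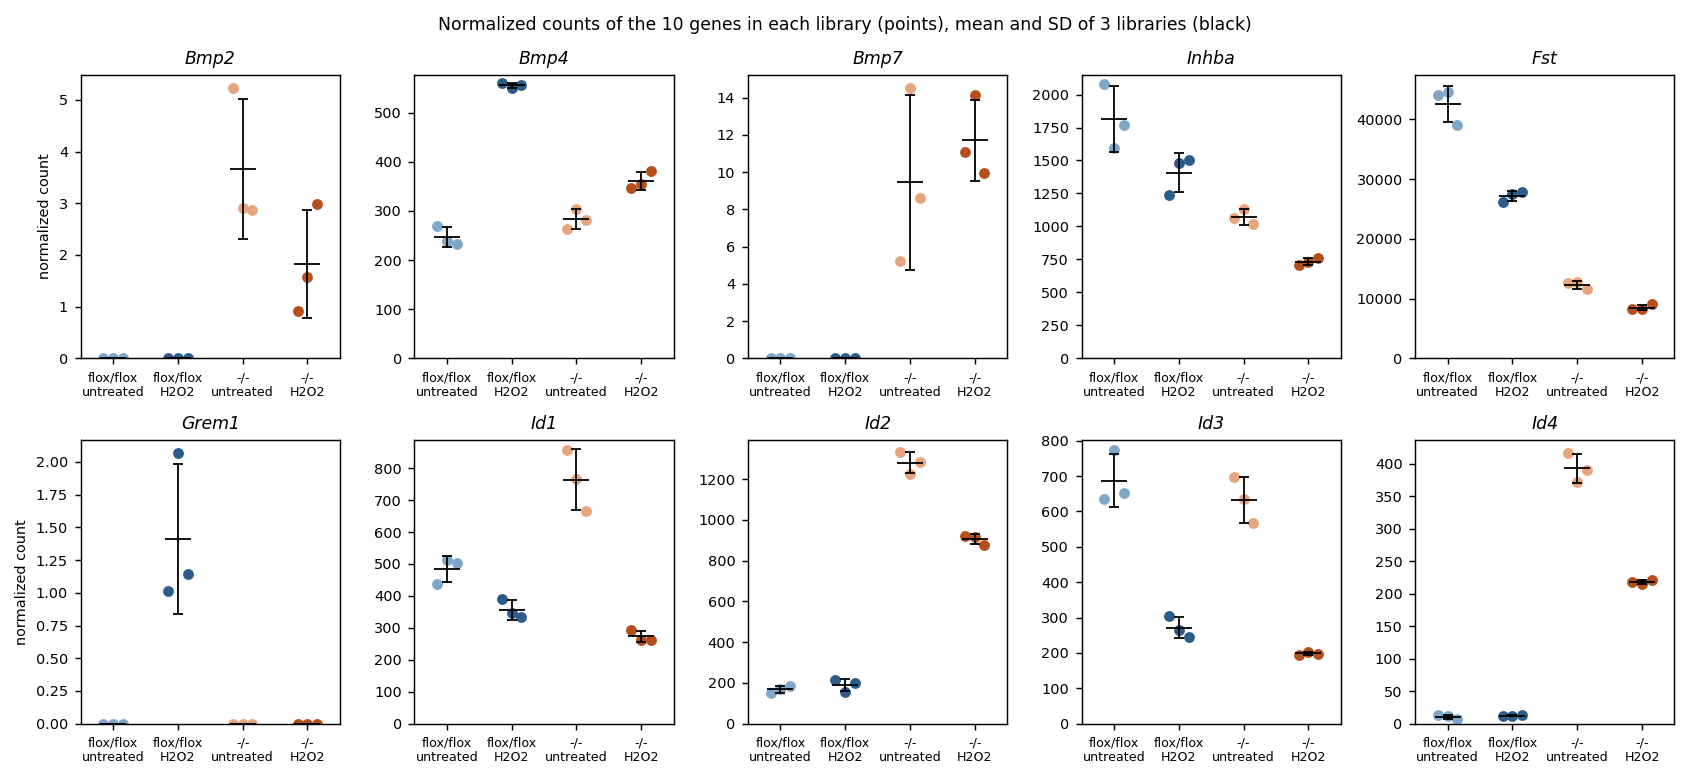
Normalized counts (y axis, from 0, a separate scale per gene) of the 10 genes in the 4 groups (x axis); points are libraries, and black marks are the mean and SD of 3 libraries. Id2 and Id4 are higher in every TβRII-/- library than in any TβRIIflox/flox library, Fst is lower, and Bmp4 is highest in TβRIIflox/flox PT cells given H2O2.

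Among the ligands, Bmp4 did not pass the test between the untreated lines and was lower in TβRII-/- PT cells after H2O2. Untreated libraries held 270.4, 238.1 and 233.4 normalized counts for TβRIIflox/flox against 263.5, 304.0 and 281.4 for TβRII-/- PT cells. With H2O2 they were 561.0, 550.5 and 555.8 in TβRIIflox/flox against 346.1, 355.4 and 380.8 in TβRII-/- PT cells. The untreated groups overlapped, and the H2O2 groups lay far apart, with TβRIIflox/flox PT cells higher. The log2 fold change between the untreated lines was 0.20 ± 0.09 (adjusted p = 0.0614, edgeR), with a 95% interval from 0.01 to 0.38, and between the lines with H2O2 it was -0.63 ± 0.08 (adjusted p = 3.23e-08).

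Inhba, the activin subunit gene, was lower in TβRII-/- PT cells in both media. Untreated libraries held 2083, 1592 and 1766 normalized counts for TβRIIflox/flox against 1063, 1134 and 1017 for TβRII-/- PT cells, and the groups did not overlap. The fold was 1.69 lower (log2 fold change -0.76 ± 0.08, adjusted p = 4.6e-10, edgeR). With H2O2 the libraries held 1239, 1482 and 1504 against 710.8, 732.8 and 757.7, a fold of 1.92 lower (log2 fold change -0.94 ± 0.08, adjusted p = 7.06e-12). The 24 genes nearest to Inhba on chromosome 13 had a median log2 fold change 0.24 below that of all genes in the untreated lines and 0.17 below with H2O2; the part of this in the result was not tested.

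Bmp7 and Bmp2 were counted in TβRII-/- PT cells and had 0 counts in all 6 TβRIIflox/flox libraries. Bmp7 had 5, 15 and 9 raw counts in untreated TβRII-/- PT cells and 12, 18 and 10 with H2O2. Its mean in TβRII-/- PT cells was 3.15 times a floor of 3 normalized counts per library untreated and 3.91 times that floor with H2O2. The lowest untreated TβRII-/- library held 5.23 normalized counts. Bmp7 passed the filter only through TβRII-/- libraries, so no fold between the lines is given. Bmp2, with 5, 3 and 3 raw counts untreated and 1, 2 and 3 with H2O2, stayed too low for the test. At this depth neither gene was detectable in TβRIIflox/flox PT cells. Bmp2, Bmp7, Id1 and Grem1 lie on chromosome 2, where the median over tested genes between the lines exceeded that of all genes by 0.29 on the log2 scale, untreated and with H2O2; the part of this in the results was not tested.

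Of the antagonists, Fst was by far the most abundant of the 10 genes and was lower in TβRII-/- PT cells. Its normalized counts were 44110, 44560 and 39080 in untreated TβRIIflox/flox against 12590, 12840 and 11600 in untreated TβRII-/- PT cells. With H2O2 they were 26120, 27530 and 27790 against 8183, 8309 and 9032. No library of one line reached the range of the other. The folds were 3.45 lower untreated (log2 fold change -1.79 ± 0.07, adjusted p = 1.41e-20, edgeR) and 3.19 lower with H2O2 (log2 fold change -1.67 ± 0.07, adjusted p = 8.21e-20). The 24 genes nearest to Fst had a median 0.24 and 0.21 below that of all genes untreated and with H2O2; the part of this in the result was not tested. Grem1 was near absent: it had 1, 2 and 1 raw counts in TβRIIflox/flox PT cells given H2O2 and 0 in the other 9 libraries, so no difference was detectable at this depth.

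Because follistatin binds activin, the level of Fst was set against that of Inhba, both per kb of transcript. The Fst level was 53.0 ± 8.22 times the Inhba level in untreated TβRIIflox/flox against 25.7 ± 0.619 times in untreated TβRII-/- PT cells (SD, n = 3 each; 2-sided exact permutation p = 0.1, the smallest that 3 against 3 libraries allow). With H2O2 the ratios were 43.2 ± 3.30 and 25.8 ± 0.667 (exact permutation p = 0.1, n = 3 each). Every TβRII-/- library lay below every TβRIIflox/flox library, and Fst stayed above Inhba per kb in all 12. The ratio leaves out Inhbb, the gene of the other activin β subunit, so it does not cover all activin. Inhbb averaged 91.4 normalized counts in TβRIIflox/flox against 619.0 in TβRII-/- PT cells untreated, and 167.1 against 927.4 with H2O2.

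Id4 and Id2 were higher in TβRII-/- PT cells, Id1 was higher only without H2O2, and Id3 was not called in either medium. Of the 4 Id genes, 3 were called higher untreated and 2 with H2O2, against 16.3% and 17.3% of all genes tested.

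Id4 was nearly absent from one line and well counted in the other. Normalized counts were 12.6, 11.1 and 6.45 in untreated TβRIIflox/flox against 416.2, 371.8 and 390.6 in untreated TβRII-/- PT cells. With H2O2 they were 11.2, 12.4 and 12.6 against 217.8, 215.4 and 221.7. The lines did not overlap in either medium. The log2 fold change was 5.27 ± 0.17 untreated (38.5-fold, adjusted p = 5.75e-23, edgeR) and 4.17 ± 0.18 with H2O2 (18.0-fold, adjusted p = 9.98e-20). The median of the 24 nearest genes on chromosome 13, minus that of all genes, was -0.15 untreated and -0.13 with H2O2, the opposite direction to Id4. Its part in the result was not tested.

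Id2 showed the same order of the lines at higher counts. Untreated libraries held 151.5, 168.0 and 183.9 normalized counts in TβRIIflox/flox against 1331, 1227 and 1286 in TβRII-/- PT cells. With H2O2 they held 213.1, 154.9 and 199.4 against 922.1, 916.0 and 877.0. The TβRII-/- libraries were all above the TβRIIflox/flox libraries. The log2 fold change was 2.93 ± 0.09 untreated (7.63-fold, adjusted p = 9.14e-24, edgeR) and 2.26 ± 0.09 with H2O2 (4.79-fold, adjusted p = 9.69e-21). The 24 nearest genes on chromosome 12 had a median 0.27 above that of all genes untreated and 0.26 above with H2O2; the part of this was not tested.

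Id1 changed its order with the medium. Untreated libraries held 436.6, 510.8 and 504.4 normalized counts in TβRIIflox/flox against 856.5, 766.8 and 666.2 in TβRII-/- PT cells. With H2O2 they held 390.6, 345.0 and 332.4 against 292.6, 262.6 and 263.5. TβRII-/- PT cells were thus the higher line untreated and the lower line with H2O2, without overlap in either medium. The log2 fold change was 0.66 ± 0.09 untreated (1.58-fold, adjusted p = 6.93e-08, edgeR) and -0.39 ± 0.10 with H2O2 (adjusted p = 0.000918), the latter short of the fold limit. Without replicate 1 of the untreated TβRIIflox/flox libraries or replicate 1 of the untreated TβRII-/- libraries, the untreated log2 fold change was 0.58 or 0.57 and also fell short of it. The 24 genes nearest to Id1 had a median 0.38 above that of all genes untreated and 0.44 above with H2O2. The part of this in the result was not tested.

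Id3 held 635.4, 773.4 and 652.8 normalized counts in untreated TβRIIflox/flox against 696.5, 634.1 and 566.7 in untreated TβRII-/- PT cells, and these groups overlapped. The log2 fold change was -0.12 ± 0.08 (adjusted p = 0.213, edgeR), with a 95% interval from -0.29 to 0.05. With H2O2 the libraries held 303.4, 264.4 and 246.4 against 194.8, 203.6 and 196.9, a log2 fold change of -0.45 ± 0.11 (adjusted p = 0.000359), short of the fold limit.

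**Figure D2:**
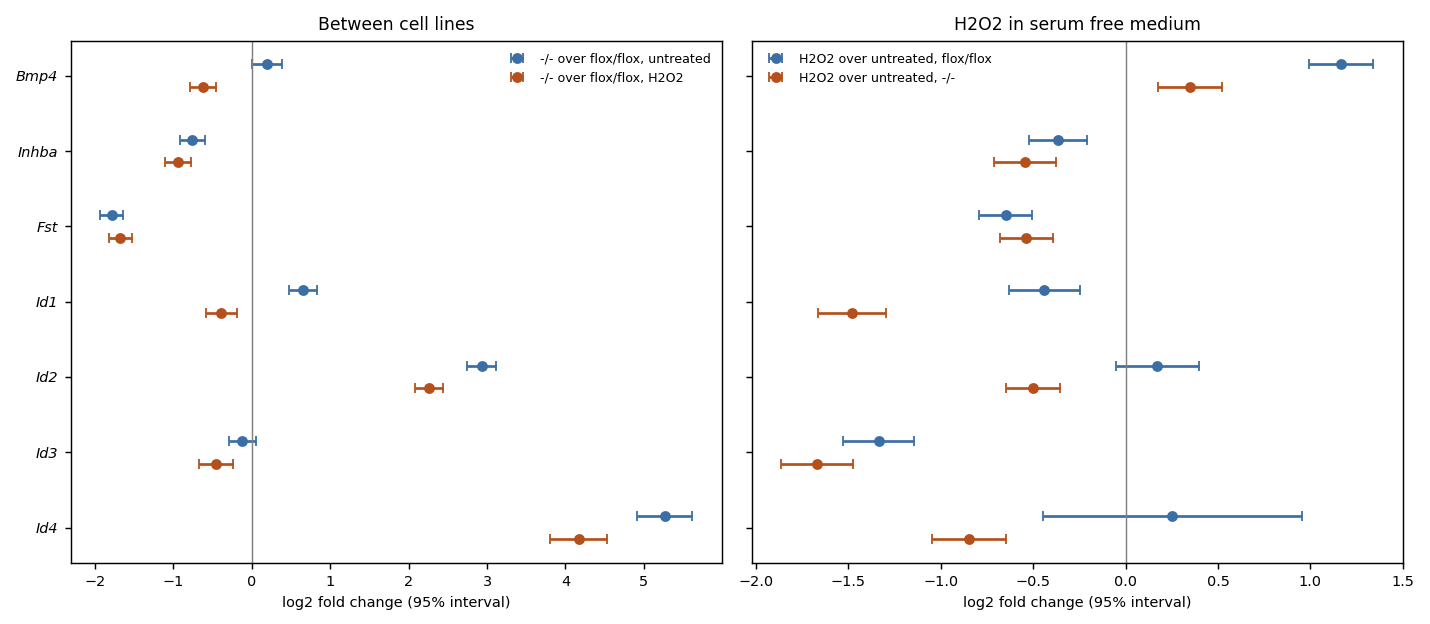
Log2 fold changes (x axis) with 95% intervals from edgeR for 7 of the genes (y axis); the left panel compares the lines without and with H2O2, and the right panel compares H2O2 with no treatment in each line. Id1 lies at 0.66 untreated and at -0.39 with H2O2 in the left panel, and in the right panel Bmp4 lies at 1.17 for TβRIIflox/flox and at 0.35 for TβRII-/- PT cells.

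Added together per kb of transcript, the 4 Id genes reached 1037 ± 89.8 normalized counts per kb in untreated TβRIIflox/flox against 1858 ± 149 in untreated TβRII-/- PT cells (exact permutation p = 0.1, n = 3 each). With H2O2 the sums were 611.8 ± 57.2 and 873.7 ± 21.9 (exact permutation p = 0.1, n = 3 each). The make-up of the sum differed between the lines. Id3 held 51.8% ± 2.20 of it and Id2 held 7.68% ± 0.692 in untreated TβRIIflox/flox PT cells, whereas they held 26.6% ± 0.772 and 32.8% ± 2.22 in untreated TβRII-/- PT cells. In TβRII-/- PT cells given H2O2, Id2 alone held 49.1% ± 0.531.

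In levels per kb, the order in untreated TβRIIflox/flox PT cells was Id3 (537.7 ± 58.8), Id1 (417.2 ± 35.4), Id2 (79.5 ± 7.67) and Id4 (2.52 ± 0.806). In untreated TβRII-/- PT cells Id1 (657.9 ± 82.1) and Id2 (606.6 ± 24.8) did not differ beyond their spread, followed by Id3 (494.9 ± 50.8) and Id4 (98.3 ± 5.59).

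**Figure D3:**
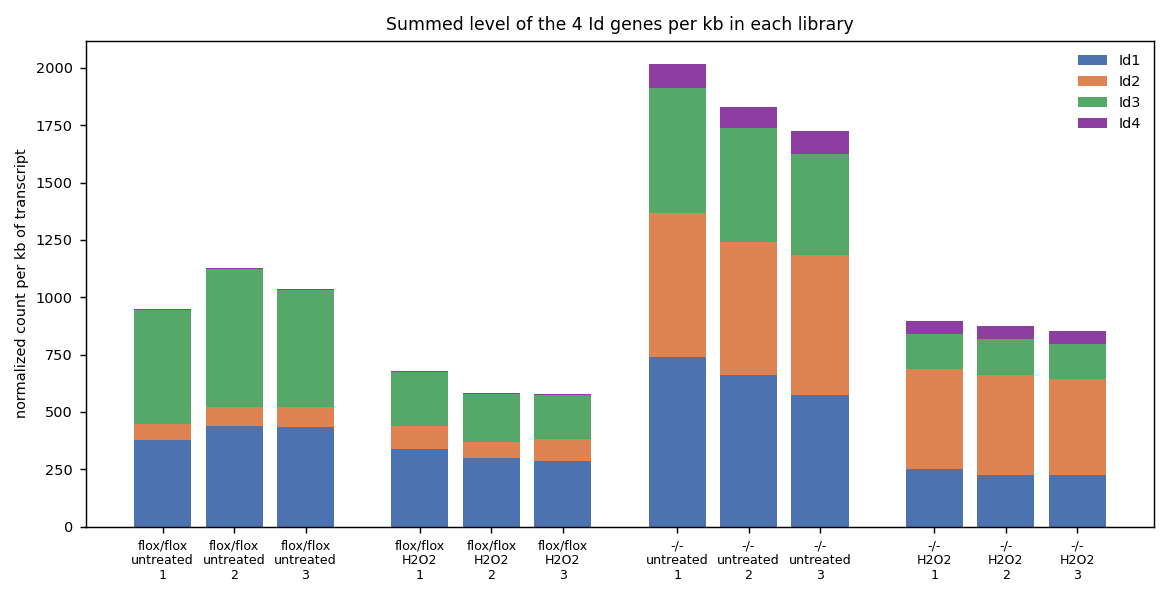
Summed level of Id1, Id2, Id3 and Id4 in normalized counts per kb of transcript (y axis, from 0) in each of the 12 libraries (x axis). The orange segment of Id2 is thin in the TβRIIflox/flox libraries and is the tallest segment in the 3 TβRII-/- libraries given H2O2, where it holds 48.7% to 49.7% of the sum.

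To determine how the genes responded to H2O2 in serum free medium, treated and untreated cells of each line were compared. These comparisons share libraries with those between the lines. In TβRIIflox/flox PT cells 3 of 7 genes with a value were called, Bmp4 higher and Fst and Id3 lower, against 8.24% of all genes tested, 5.68% higher and 2.56% lower. In TβRII-/- PT cells 3 of 8 were called, all lower, namely Id1, Id3 and Id4, against 8.33% of all genes, 4.56% higher and 3.76% lower.

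Bmp4 rose 2.25-fold in TβRIIflox/flox PT cells (log2 fold change 1.17 ± 0.09, adjusted p = 1.23e-12, edgeR). Its log2 fold change in the TβRII-/- line was 0.35 ± 0.09 (adjusted p = 0.00154), under the fold limit. Id3 was lower with H2O2 in both lines, 2.52-fold (log2 fold change -1.34 ± 0.09, adjusted p = 4.3e-13) and 3.18-fold (-1.67 ± 0.10, adjusted p = 5.22e-15). Id1 was 2.79-fold lower in TβRII-/- PT cells (log2 fold change -1.48 ± 0.09, adjusted p = 2.04e-14) and had a log2 fold change of -0.44 ± 0.09 in TβRIIflox/flox PT cells, under the fold limit. Id4 was 1.80-fold lower in TβRII-/- PT cells (log2 fold change -0.85 ± 0.10, adjusted p = 3.15e-08), whereas TβRIIflox/flox PT cells, with at most 12 raw counts, gave 0.25 on the log2 scale with a 95% interval from -0.45 to 0.95.

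Id2 had log2 fold changes of 0.17 ± 0.11 in the TβRIIflox/flox line (adjusted p = 0.219, edgeR) and -0.50 ± 0.07 in the TβRII-/- line (adjusted p = 1.4e-06), and neither reached the fold limit. Fst was 1.57-fold lower in TβRIIflox/flox PT cells (log2 fold change -0.65 ± 0.07, adjusted p = 5.59e-09) and had a log2 fold change of -0.54 ± 0.07 in the other line. Inhba had log2 fold changes of -0.37 ± 0.08 and -0.55 ± 0.08, both under the fold limit. The epithelial markers summed to 2161 to 2318 and 9589 to 10170 normalized counts in the 2 lines given H2O2, the PT markers to 30900 to 33750 and 15870 to 17250 (Aqp1 averaged 7103 untreated and 14610 with H2O2 in TβRIIflox/flox PT cells), the fibroblast markers to 248.9 to 279.6 and 626.8 to 763.6, and the endothelial markers to 20.7 to 23.3 and 38.5 to 63.6; their part in these results was not tested.

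The difference of the H2O2 effects between the lines was tested as an interaction, where an adjusted p under 0.05 alone made a call. It was called for 4 of 7 genes, Bmp4, Id1, Id2 and Id4, against 10.2% of all genes tested, and in each the log2 fold change with H2O2 was lower in TβRII-/- PT cells. The difference was -1.04 ± 0.13 for Id1 (adjusted p = 1.66e-06, edgeR), -0.82 ± 0.12 for Bmp4 (adjusted p = 2.2e-05) and -0.67 ± 0.13 for Id2 (adjusted p = 0.000902). For Id4 it was -1.10 ± 0.36 (adjusted p = 0.0463), a call that was lost under 14 of 18 alternatives, among them the fit without any 1 library except replicate 1 of the untreated TβRIIflox/flox libraries. For Id3, Inhba and Fst the differences were -0.33 (95% interval -0.61 to -0.06, adjusted p = 0.117), -0.18 (-0.41 to 0.05, adjusted p = 0.354) and 0.11 (-0.09 to 0.31, adjusted p = 0.534).

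Other genes of the pathway were taken from lists, and the plot of log2 fold changes by list gives those tested in the untreated lines. The counts of each list stand against 28.0% of all genes called untreated (16.3% higher, 11.8% lower) and 30.7% with H2O2 (17.3% higher, 13.4% lower). With so few genes a list, none is called different from that background. Of 15 other antagonists 11 were tested, 3 were higher and 3 lower in untreated TβRII-/- PT cells. The BMP antagonist noggin (Nog) was at 260.7 ± 41.7 normalized counts in TβRIIflox/flox against 7.63 ± 1.84 in TβRII-/- PT cells. Nog is 1 of the 3 lower antagonists but passed the filter only through the TβRIIflox/flox libraries. Its call is therefore no support, and no fold is given. The follistatin-like gene Fstl1 was lower (log2 fold change -2.47 ± 0.07). Sostdc1, a BMP antagonist, had 11.2 ± 2.78 normalized counts in TβRII-/- against 0.371 ± 0.643 in TβRIIflox/flox PT cells. Sostdc1 is 1 of the 3 higher antagonists but passed the filter only through the TβRII-/- libraries, so its call is no support and no fold is given. Of 17 other ligands 7 were tested, 3 were higher and 1 lower. Inhbb, the other activin β subunit, was higher (91.4 ± 6.33 to 619.0 ± 65.9 normalized counts, log2 fold change 2.76 ± 0.10, adjusted p = 2.2e-21), as was Bmp8a (2.36 ± 0.33). Inha, whose product turns activin subunits into inhibin, was lower (-3.90 ± 0.33, adjusted p = 3.34e-12). It had 70.6 ± 9.02 normalized counts in untreated TβRIIflox/flox against only 4.55 ± 2.13 in untreated TβRII-/- PT cells, so this fold rests on low counts. With H2O2 the means were 70.4 and 14.6, and the log2 fold change was -2.24 ± 0.25.

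Among 13 receptors and coreceptors 11 were tested, 4 were higher and 3 lower. The type I receptor gene Bmpr1b, 1 of the 4 higher, had 8.23 ± 3.04 normalized counts in TβRII-/- against 0.351 ± 0.607 in TβRIIflox/flox PT cells; it too passed the filter only through the TβRII-/- libraries, and its call is no support. The decoy receptor Bambi was lower (log2 fold change -1.63 ± 0.62) at low counts. It had 11.55 ± 3.89 normalized counts in untreated TβRIIflox/flox against 3.65 ± 1.54 in untreated TβRII-/- PT cells. With H2O2 in both lines Bambi was not called (adjusted p = 0.159, edgeR). The type I receptor Acvr1 was lower (-1.01 ± 0.08). Of the 6 processing enzymes, which cut pro-ligands or the antagonist chordin, 5 were tested and 4 were lower, among them Tll1 (-4.76 ± 0.21), the proprotein convertase Pcsk6 (-3.70 ± 0.13) and Bmp1 (-1.24 ± 0.08). Tll1 had 324.3 ± 53.8 normalized counts in untreated TβRIIflox/flox against 11.9 ± 2.50 in untreated TβRII-/- PT cells, so its fold rests on low counts in that line. All 8 Smads and Smad ubiquitin ligases were tested, with 1 higher and 3 lower: Smad9 was higher (1.85 ± 0.25), and the inhibitory Smad7 (-1.27 ± 0.09) and the BMP effector Smad1 (-1.05 ± 0.07) were lower. Of 9 other BMP targets 5 were tested and 1, Runx2, was lower (-1.67 ± 0.15). Of 5 Id partners all were tested and 2 were lower, Tcf4 (-1.07) and Ets1 (-0.93). With H2O2 in both lines the counts higher and lower were 3 and 3 of 11 other antagonists, 3 and 3 of 7 other ligands, 2 and 3 of 11 receptors, 0 and 5 of 5 processing enzymes, 1 and 2 of 8 Smads and ligases, 0 and 1 of 5 targets and 0 and 1 of 5 partners.

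**Figure D4:**
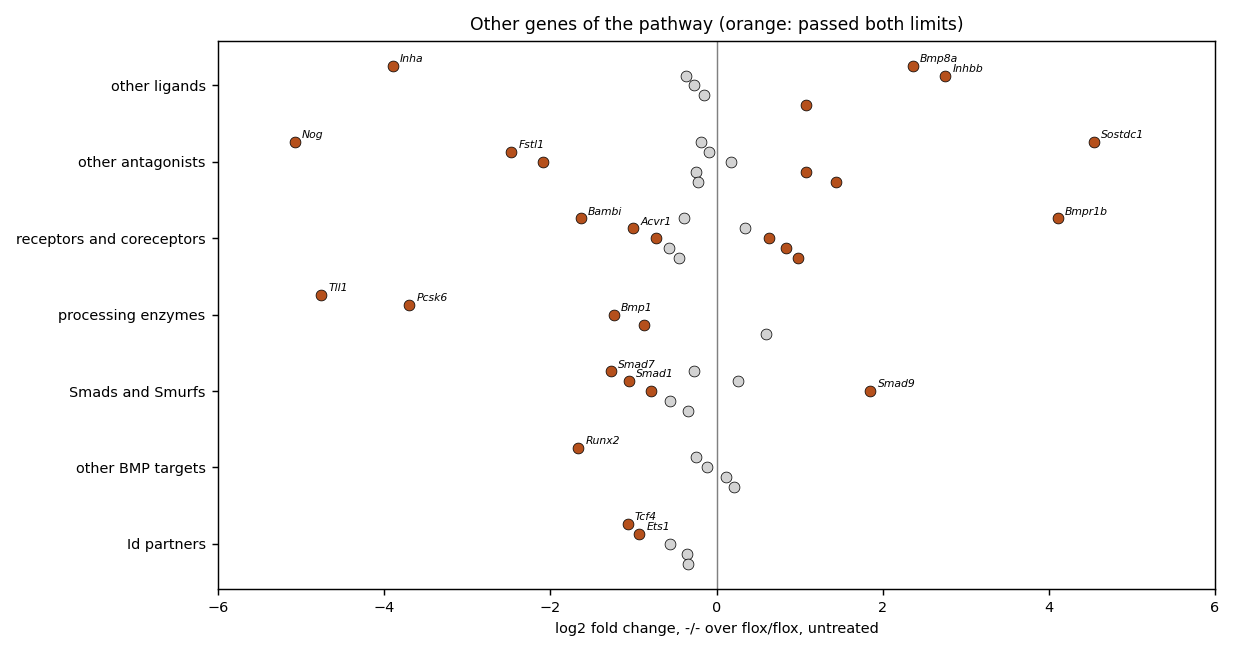
Log2 fold change of untreated TβRII-/- over untreated TβRIIflox/flox PT cells (x axis) for the tested genes of 7 lists (y axis); each point is a gene, orange where it passed both limits and named for up to 3 of these per list, and vertical offsets within a list only separate the points. Nog is the leftmost point in the row of antagonists, and it passed the filter only through TβRIIflox/flox libraries. The points of Sostdc1 and Bmpr1b rest on TβRIIflox/flox libraries near 0 counts, and 4 of 5 processing enzymes lie to the left.

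For each tested gene except Bmp7, which was at 0 in both groups of 1 line, the protein-coding gene with the most similar pattern over the 4 groups was found as the smallest root mean square difference of centred mean log2 CPM. These were Mgll for Bmp4 (0.07), 9930111J21Rik2 for Inhba (0.04), Kcnip1 for Fst (0.05), Bmerb1 for Id1 (0.12), Rnf223 for Id2 (0.07), Daam2 for Id3 (0.17) and Krt79 for Id4 (0.13). Within 0.2 there were 199 genes for Inhba and 77 for Bmp4, but only 6 for Id1, 6 for Id3 and 3 for Id4. With 4 groups, such likeness describes the pattern alone.

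Every one of the 10 representative transcripts except that of Bmp2 matched a transcript of another annotated gene over at least 100 bases at 95% identity or more. For Bmp4, Bmp7, Fst, Inhba and the 4 Id genes these were on the opposite strand, the longest being 652 bases for Id2. The libraries were stranded, but the strand setting of the counting is not given in the sources used here, so reads of antisense partners may be included. Other transcripts were compared without a test. A read is counted on each transcript it overlaps, so likeness between transcripts of a gene is no separate support. The second Id2 and Bmp4 coding transcripts held at least 98.67% and 98.37% of the counts of their representatives in every library. Between the untreated lines the second Id2 coding transcript had a log2 ratio of 2.93, and the 5 further Fst transcripts ranged from -1.81 to -1.78. The second Bmp4 coding transcript had a log2 ratio of 0.20 between the untreated lines, and with H2O2 it had 1.16 in the TβRIIflox/flox and 0.35 in the TβRII-/- line. The 2 low Bmp4 transcripts with a retained intron differed from this. The one with group means of 24.0 to 67.7 normalized counts had ratios of -0.20 between the untreated lines and of 1.28 and 0.69 with H2O2. The other, with group means of 2.94 to 11.7, had -0.39 between the untreated lines and 1.44 and 1.37 with H2O2. Its counts were too low to compare the responses of the lines.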

How the data were processed

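RNA was measured in 12 mouse PT cell libraries, 3 per group, grouped by the sample labels; 1 untreated TβRIIflox/flox library (replicate 3) is titled slightly differently from its fellows. The authors trimmed reads with fastp, aligned them with STAR to GRCm38.p6 (GENCODE M23) and counted them with featureCounts; versions of these are not given in the sources used here. The values the authors deposited are raw whole-number counts per transcript, and a read is counted on each transcript it overlaps, so the transcript totals were 3.20 to 3.32 times the gene totals used here. Gene counts had been assumed in the design; the transcript with the highest total stood for each gene instead.

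Of 106332 transcripts, 104820 matched GENCODE M39 by Ensembl identifier; the other 1512 held 1.22% to 1.28% of counts and were left out. Locations and promoter windows are RefSeq's for GRCm38.p6. edgeR 4.0.16 in R 4.3.3 was run with TMM, filterByExpr and glmQLFTest on 1 model with a mean per group. Normalized counts are counts scaled to the mean effective library size. Standard errors are the log2 fold change over the root of the F statistic. Alternatives were DESeq2 1.42.0, its size factors in edgeR, no filter, at least 10 counts in every library, a replicate block, sums over transcripts, another choice of transcript, only the groups compared, and each library left out. Replicates of a group all differed by more than counting noise (chi-square per gene 3.58 to 12). Transcripts were matched with BLAST 2.17.0+.

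The 10 genes and the lists were chosen with earlier results of these data known. All 10 are described; other pathway genes are named only where called between the lines, at most the 3 with the largest change per list. Bmp7 has no value where both groups were at 0 counts. Depth limits genes near 3 counts per library.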

Additional observations from a re-analysis of the deposited data

Results flagged for a closer look

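The effect of H2O2 in serum free medium differed between the lines for 4 of 7 genes by the edgeR interaction test, which called 10.2% of all genes tested. The difference of the log2 fold changes, TβRII-/- minus TβRIIflox/flox PT cells, was -1.04 for Id1, -0.82 for Bmp4, -0.67 for Id2 and -1.10 for Id4; the Id4 call was lost under 14 of 18 alternatives. Groups of 3 libraries were too small for a test of single outlying libraries.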

How the results depend on the processing

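Of 558 values of single genes among the 10 under the alternatives, 540 kept their direction and their side of the threshold, 16 kept their direction but were no longer called, and 2 became called. The number of the 10 genes called ranged from 4 to 7 between the untreated lines, against 2676 to 4007 of all genes. It was 4 of 6 tested with at least 10 counts in every library and 7 of 10 with no filter. With H2O2 in both lines it ranged from 4 to 6 (2985 to 4328 of all genes). For H2O2 in TβRIIflox/flox PT cells it was 3 throughout (845 to 1176 of all genes). In TβRII-/- PT cells it was 2 to 3 (725 to 1131 of all genes). For the difference of the H2O2 effects it was 3 to 5 (833 to 1680 of all genes). The Id4 difference had adjusted p-values from 0.0271 to 0.154 over its 18 alternatives. Without replicate 1 of the untreated TβRIIflox/flox libraries the Inhba difference was called (-0.32, adjusted p = 0.0329, edgeR), and without replicate 2 the Id3 difference was (-0.45, adjusted p = 0.0309). Over all genes, 1321 differences of the H2O2 effects were called, against 833 without replicate 1 and 878 without replicate 2 of the TβRII-/- libraries given H2O2. Bmp2 was tested only without a filter, where it was called between the untreated lines (adjusted p = 0.011, edgeR). That call, 1 of the 7 of 10, rests on 5, 3 and 3 raw counts against 0 in TβRIIflox/flox PT cells and is no support. With H2O2 in both lines Bmp2 was not called (adjusted p = 0.0732, edgeR).

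With the replicate number as a block, 6, 6, 3, 3 and 3 of the genes were called in the 5 comparisons, and the Id4 difference (-1.10, adjusted p = 0.0563, edgeR) was the only call lost. Of all 12971 genes tested, 3623, 3969, 1047, 1069 and 1202 were called with the block. Libraries with the same number did not deviate together (correlations of their deviations from the group means from -0.10 to 0.06), so the replicate block pairs nothing the data show.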
